A study of Saccharomyces cerevisiae with 30 samples.

Results

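The 10 genes described here, AGP1, GAP1, BAP2, BAP3, TAT1, TAT2, GNP1, MUP1, LYP1 and CAN1, encode amino acid permeases of the budding yeast plasma membrane. They were taken by name from the 5904 open reading frames of the deposited footprint and RNA tables, as genes whose first targeting signal lies inside the protein and which have no cleaved signal sequence. Permeases of this kind carry amino acids into the cell together with protons through a bundle of membrane-spanning helices. They are inserted into the endoplasmic reticulum (ER) as they are made. Many leave it with the help of the packaging chaperone SHR3. They are removed from the cell surface after ubiquitin is attached by RSP5. The signal recognition particle (SRP) binds hydrophobic segments emerging from the ribosome and brings the ribosome, with its message, to the ER channel; SRP72 is one of its subunits.

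Ribosome footprints and poly(A) RNA were counted per open reading frame in fractions of yeast grown in YPD, a rich medium, to mid-log phase. Soluble and membrane-bound polysomes and the SRP72-bound polysomes recovered from the soluble fraction came from BY4741 carrying SRP72-TAP, an affinity tag present in every BY4741 library, controls included. Each of these 3 fractions had 2 libraries with no drug before harvest. Another 4 single footprint libraries (soluble and membrane ribosomes, soluble and SRP72-bound polysomes) came from the same strain given cycloheximide (CHX, which stalls elongating ribosomes) to 100 µg/mL as the culture was collected. The 14 RNA libraries were also single: soluble, membrane and SRP72-bound RNA of BY4741 SRP72-TAP lysates incubated with CHX or with puromycin, which releases nascent chains, and soluble and membrane RNA of W303 and of CY2522, a prt1-1 mutant, at 25 °C or after 1 h at 37 °C. PRT1 is a subunit of initiation factor eIF3, and the prt1-1 allele is known for blocking initiation at the higher temperature. As background on the strains, W303 is known for a nonsense allele of CAN1, while the labels state no CAN1 allele for W303 or for CY2522. No label tells whether the replicates were grown apart, and the p-values below cover the spread between libraries that may differ only technically.

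Depth was 16.1 to 34.7 M counts for footprints and 3.1 (W303 membrane, 25 °C) to 34.3 M counts for RNA. Replicates correlated at a Pearson's r of 0.9946 to 0.9965 in log2 CPM (counts scaled to the library total). The fractions could be checked with 10 genes of ER and plasma membrane proteins, among them SEC61 and PMA1, all of which were called higher on membranes at a median log2 fold change of 6.53, and with 39 cytosolic genes, whose median was −0.23.

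According to the authors' deposited table, 8 of the 10 permeases belong to the class of transmembrane genes without a signal sequence, with a first signal between codons 86 and 125 (median 97). That is late compared with a median of codon 45 over the 569 transmembrane genes of that table and codon 6 over its 310 genes with a signal sequence. The first signal lay at codon 125 in AGP1, 114 in LYP1, 99 in both BAP2 and TAT1, 95 in GAP1, 94 in BAP3, 93 in CAN1 and 86 in TAT2, in the authors' deposited table. GNP1 and MUP1 carry the class "Exception" there and have no signal position, so the label of a late internal signal could be checked for 8 genes only. The reading frames are alike in length, at 574 codons (MUP1) to 663 codons (GNP1).

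The authors' deposited table also marks where SRP was directly bound along the reading frame, an annotation made from SRP72 footprints and so not independent of the values below. Of the 8 permeases with an entry, 5 were marked as bound in a pronounced way (39.6% of all genes with an entry, and 72 of 115 genes of the transmembrane class whose first signal lies at codon 80 or later), at codon 263 of GAP1, 199 of BAP3, 196 of TAT1, 190 of BAP2 and 161 of CAN1. These positions lie 168, 105, 97, 91 and 68 codons after the first signal, in the same order, against a median of 72 codons over 217 genes in that table. The site was marked as assigned without ambiguity for CAN1 alone of these 5. The authors' deposited table lists AGP1, TAT2 and LYP1 as not bound in this way. It lists all 8 as showing SRP prerecruitment, the authors' term for SRP on ribosomes before a signal is exposed. The same was listed for 85.2% of all genes with an entry and for 87 of 115 transmembrane genes with a first signal at codon 80 or later. BAP2 and TAT1 are neighbours on chromosome II, at 373861 to 375690 and 376574 to 378433 in the R64 assembly, with 883 bases between them.

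The first comparison asked how the ribosomes translating these permeases were divided between the cytosol, membranes and SRP. The 10 genes together supplied 0.033% and 0.032% of the counts of the 2 soluble polysome libraries, 0.624% and 0.527% of the membrane polysome libraries, and 1.401% and 1.415% of the SRP72-bound libraries. Levels below are CPM scaled by the trimmed mean of M values (TMM), given as replicate 1 and replicate 2.

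Among the permeases of broad or amide specificity, GNP1, the high-affinity glutamine permease, had 43.7 and 45.9 CPM in soluble, 1325 and 1085 in membrane, and 2856 and 3007 in SRP72-bound polysomes. AGP1, a broad-range permease, had 5.56 and 6.03, 158 and 133, and 520 and 502 CPM. GAP1, the general amino acid permease known for its repression on good nitrogen sources, had 1.39 and 1.15, 47.3 and 42.5, and 112 and 118 CPM. For each of these genes soluble polysomes stood lowest and SRP72-bound polysomes highest.

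BAP2, a permease of branched-chain amino acids, had 40.9 and 40.6 CPM in soluble, 880 and 674 in membrane, and 9618 and 7499 in SRP72-bound polysomes. Its relative BAP3 had 17.4 and 18.9, 498 and 411, and 1732 and 1562 CPM. BAP2 thus exceeded BAP3 by far more in the SRP72-bound fraction than in the other two. TAT1, which takes up valine, leucine, isoleucine and tyrosine, had 30.2 and 28.5, 931 and 774, and 3439 and 3134 CPM. TAT2, the high-affinity tryptophan permease, had 16.8 and 16.7, 223 and 175, and 552 and 555 CPM. Again soluble polysomes were lowest and SRP72-bound polysomes highest for each gene.

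For the permeases of basic amino acids, LYP1 (lysine) had 15.1 and 15.8 CPM in soluble, 845 and 672 in membrane, and 1693 and 1767 in SRP72-bound polysomes. CAN1 (arginine) had 9.32 and 8.83, 449 and 334, and 1045 and 1040 CPM. MUP1, the high-affinity methionine permease and a more distant relative of the others, had 23.8 and 22.2, 1147 and 879, and 1445 and 1727 CPM. Of the 10 genes, MUP1 had the smallest step from membrane to SRP72-bound polysomes.

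**Figure D1:**
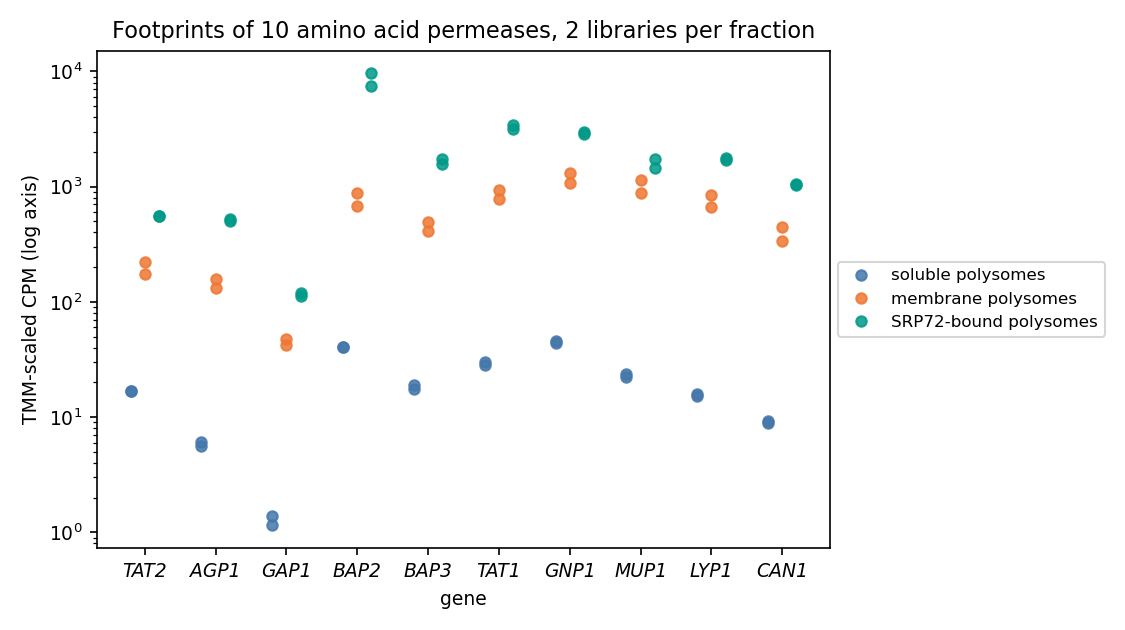
Footprint levels (TMM-scaled CPM, log axis) of the 10 permeases in the drug-free libraries. Each point is 1 of 2 libraries of a fraction, and for each gene the soluble points lie lowest, the membrane points between and the SRP72-bound points highest; GAP1 has the lowest levels and BAP2 in SRP72-bound polysomes the highest.

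Per kilobase of coding length, GAP1 was lowest of the 10 in all 3 fractions, at 0.704 ± 0.0940, 24.9 ± 1.87 and 63.8 ± 2.36 CPM per kb (mean ± SD, n = 2). In SRP72-bound polysomes BAP2 was highest at 4684 ± 821 CPM per kb, while in soluble and in membrane polysomes it ranked 2 and 4. The 10 genes therefore spanned a wide range of levels, from the scarce GAP1 and AGP1 to the abundant GNP1, TAT1 and BAP2, and the same fraction was highest for each.

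On membrane polysomes all 10 permeases were higher than in soluble polysomes, each by over 2-fold (quasi-likelihood test of edgeR, adjusted over 5393 genes by Benjamini-Hochberg, adjusted p from 1.09e-08 to 1.59e-07). Of all genes tested, 34.2% were called higher and 23.5% were called higher by over 2-fold. The permeases' median log2 fold change was 4.80, with all genes at −0.07, the authors' transmembrane class at 4.25 and the 171 tested genes of that class whose first signal lies at codon 80 or later at 3.45. LYP1 was highest at 5.62 ± 0.15 (log2 fold change ± SE, here and below), followed by MUP1 at 5.46 ± 0.18, CAN1 at 5.43 ± 0.17 and GAP1 at 5.12 ± 0.12. TAT1 at 4.86, GNP1 at 4.75, AGP1 and BAP3 both at 4.65 and BAP2 at 4.25 ± 0.19 came next, and TAT2 was lowest at 3.57 ± 0.13. Between neighbours in this order, only the step from BAP2 down to TAT2 (0.69, joint SE 0.23) was larger than 2 joint SE. The joint SE, here and below, combines the SE of 2 genes as if they were independent. Both genes were read in the same libraries, so it is a rough guide and not a test of the order. Ranks among all genes tested ran from 259 (LYP1) to 717 (TAT2).

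In SRP72-bound against soluble polysomes, which share the soluble libraries with the comparison above, all 10 were again called higher (39.0% of all genes), each by over 2-fold (25.8% of all genes; edgeR, adjusted p from 4.96e-09 to 1.25e-08). Their median was 6.51, against −0.04 for all genes and 6.08 for the transmembrane class. BAP2 was highest at 7.73 ± 0.22, a 212-fold difference and rank 15 of 5393 genes. It stood 0.87 above CAN1 (6.85 ± 0.18; joint SE 0.28), while CAN1, LYP1 and TAT1 (both 6.82), BAP3 (6.52), GAP1 (6.49), AGP1 (6.48), MUP1 (6.12) and GNP1 (6.04) each lay within 2 joint SE of the next. TAT2 was lowest at 5.06 ± 0.14, a 33.3-fold difference, 0.99 below GNP1 (joint SE 0.21). TAT2 was thus last in both orders, and BAP2 moved from the last place but one to the first.

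**Figure D2:**
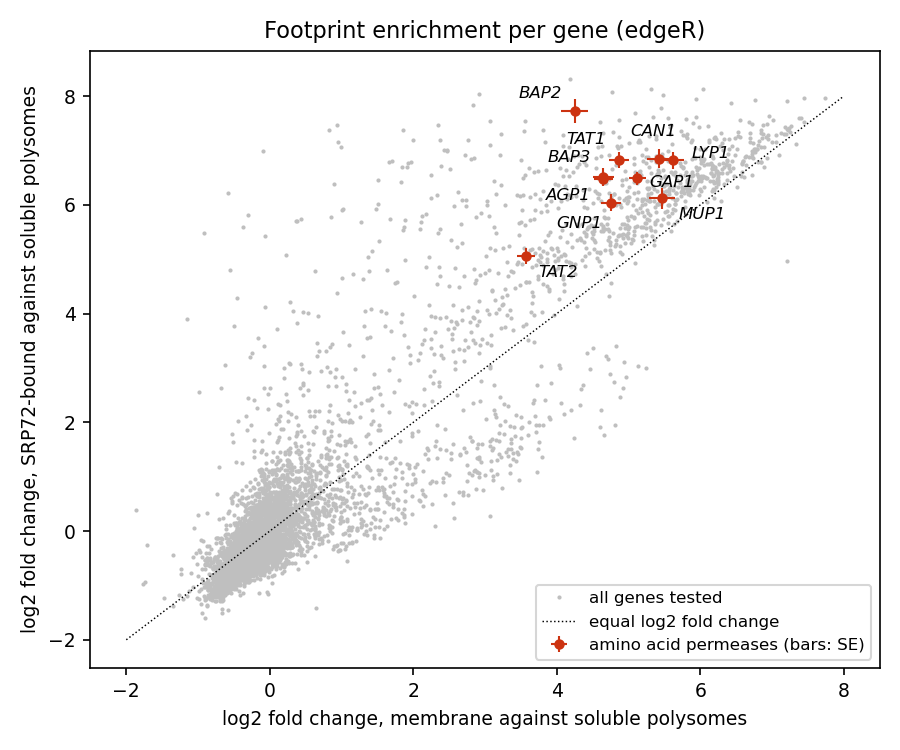
Log2 fold change on membrane polysomes (x axis) and SRP72-bound polysomes (y axis), each against soluble polysomes, for all genes tested (grey) and the 10 permeases (red, bars are SE). The permeases lie above the line of equal change, BAP2 farthest above it at 4.25 and 7.73, and TAT2 is lowest on both axes; both axes share the soluble libraries.

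SRP72-bound polysomes were then compared with membrane polysomes. All 10 permeases were called higher in the SRP72-bound fraction (29.7% of all genes; edgeR), 9 of them by over 2-fold (11.9% of all genes). The median was 1.46, against −0.01 for all genes and 1.27 for the transmembrane class, while 15 secretory genes with a cleaved signal had a median of 0.44. BAP2 differed most, at 3.47 ± 0.18 (11.1-fold; edgeR, adjusted p = 2.28e-06), 1.51 above TAT1 (1.96 ± 0.12; joint SE 0.22). BAP3 (1.87), AGP1 (1.83), TAT2 (1.49), CAN1 (1.43), GAP1 (1.37), GNP1 (2.46-fold) and LYP1 (1.20 ± 0.12) followed. MUP1 was last at 0.66 ± 0.15 (1.58-fold; edgeR, adjusted p = 0.00617), 0.54 below LYP1 (joint SE 0.19). Neither BAP2 nor MUP1 overlapped the range of the other 8.

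These fold changes depend on how the libraries are scaled. Scaling to the 39 cytosolic genes in place of TMM moved the median of all genes to 0.15 (membrane against soluble), 0.73 (SRP72-bound against soluble) and 0.54 (SRP72-bound against membrane). Among all called genes, the share called higher went from 49.5% to 75.6%, from 50.1% to 96.3% and from 50.9% to 93.3%, in the same order. Relative to the median of all genes, the permeases' median was 4.87, 6.55 and 1.47 with TMM and 4.87, 6.55 and 1.48 with cytosolic scaling, and all 10 were called higher in each comparison under both. Soluble, membrane and SRP72-bound material are fractions of lysate. A shift between fractions and a change in how many ribosomes read a message therefore cannot be told apart from these ratios alone.

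Across the 8 permeases with a signal position, the position was a poor guide to the enrichment. Pearson's r between the codon of the first signal and the log2 fold change was 0.35 for membrane and 0.30 for SRP72-bound against soluble polysomes, over 8 genes read in the same libraries, and is given as a description. Over the 541 tested genes of the transmembrane class r was −0.26 in both. AGP1, with the latest signal, came 7th of the 10 in the order for SRP72, and TAT2, with the earliest, was last of the 10 in both.

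Other transporters and the proteins that handle permeases were looked at from lists. Of 10 further plasma membrane amino acid transporters and sensors, all 10 were called higher in each of the 3 comparisons, at medians of 4.90, 6.17 and 1.32 (edgeR; backgrounds as above). On membranes the histidine permease HIP1 (5.83 ± 0.18), the basic amino acid permease ALP1 (5.81 ± 0.63), the S-adenosylmethionine permease SAM3 (5.46) and the S-methylmethionine permease MMP1 led that list. With SRP72, ALP1 (7.31 ± 0.54) and the acidic amino acid permease DIP5 (7.26 ± 0.20) led it. Against membranes the proline permease PUT4 (3.19 ± 0.32) and the methionine permease MUP3 (2.71 ± 0.16) came closest to BAP2. All 10 vacuolar amino acid transporters were likewise called higher in each comparison, AVT7 by 6.07 on membranes and 7.03 with SRP72.

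A list of 17 genes for packaging, sensing and turnover of permeases mostly encodes proteins outside the secretory pathway. On membranes 5 were called higher (34.2% of all genes) and 4 lower (34.9% of all genes), at a median of 0.03 (edgeR). With SRP72, 8 were called higher (39.0% of all genes) and 2 lower (38.9% of all genes). The counts called higher lay near the shares of all genes and are not read as a trait of this list. SHR3, an ER chaperone known for packaging amino acid permeases, was higher by 5.01 ± 0.18 on membranes and by 6.33 ± 0.19 with SRP72. RSP5, the ubiquitin ligase, was higher by 2.79 ± 0.09 on membranes and 1.74 ± 0.09 with SRP72, and was lower in SRP72-bound than in membrane polysomes, at −1.05 ± 0.09 (28.7% of all genes lower). The transcription factor STP1 was higher on membranes by 0.87 ± 0.11, and the sensor component PTR3 was higher with SRP72 by 0.54 ± 0.11. LST7, a partner of LST4 in the sorting of GAP1, was lower on membranes, at −0.90 ± 0.15, and with SRP72, at −0.54 ± 0.16. The last call ended with cytosolic scaling, where LST7 was at 0.23. SHR3 thus lay within the range of the permeases, and RSP5 below it.

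After cycloheximide in the culture the permeases were still enriched on membranes, with smaller values than without the drug, and with SRP72, where BAP2 moved furthest, from 7.73 without the drug to 6.61 with it. These 4 libraries were single, so called here means past 2-fold, with no replicate check, and brackets give exact 95% counting intervals of the log2 ratio. Brackets of a change between 2 ratios, further below, are normal approximations to the same counting error. All 10 permeases were over 2-fold higher in CHX membrane than in CHX soluble ribosomes (19.8% of 5273 genes), at a median of 3.08. They ranged from BAP2 at 2.12 [2.00, 2.24], from 35.1 to 152 CPM, up to MUP1 at 3.97 [3.81, 4.14] and GAP1 at 4.10 [3.37, 5.04]; GAP1 rests on 14 soluble counts. BAP2 was thus lowest, and TAT2 (2.44) next to it. In CHX SRP72-bound against CHX soluble polysomes all 10 were over 2-fold higher (24.8% of 5305 genes), at a median of 6.49 and a range from 5.43 (TAT2) to 6.68 (LYP1).

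BAP2 reached 6.61 [6.50, 6.71] there, rank 246, and so was not apart from the other permeases as it was without the drug. Its level with SRP72 was 2929 CPM after CHX, beside 9618 and 7499 without it, on scales set separately for the 2 sets of libraries. The median of the 10 membrane markers was also smaller, at 4.49 beside 6.53. The CHX membrane libraries hold all ribosomes and the drug-free ones polysomes, so the drug and the selection of polysomes cannot be told apart in the membrane values, and no difference between the sets was tested.

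RNA showed where the messages themselves were. In CHX-treated lysates all 10 messages were over 2-fold more abundant in membrane than in soluble RNA (18.7% of 5574 genes), at a median log2 ratio of 2.47, and in SRP72-bound than in soluble RNA (22.3% of 5598 genes), at 4.54. LYP1 was highest in both, at 3.09 [3.04, 3.15] and 5.12 [5.07, 5.17], and TAT2 lowest in both, at 1.84 [1.78, 1.91], which overlaps AGP1 at 1.89, and 3.39 [3.33, 3.45]. BAP2, with 213 CPM in soluble, 877 in membrane and 4940 in SRP72-bound RNA, was at 2.04 and 4.53, in the middle of the permeases for SRP72. TAT2 was thus lowest in both CHX-lysate RNA ratios and in both drug-free footprint comparisons with soluble polysomes, but not on CHX membranes, where BAP2 was lowest. The top place of BAP2 in the ratio of SRP72-bound to soluble material was seen in drug-free footprints and not in this RNA. In level, BAP2 was first of the 10 in SRP72-bound RNA too, at 2704 CPM per kb.

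Puromycin in the lysate, in place of CHX, left smaller differences. Only CAN1 (1.12), GAP1 (1.10), LYP1 (1.22) and MUP1 (1.14) stayed past 2-fold in membrane against soluble RNA (7.66% of 5577 genes), GNP1 lay at 0.99, and the median was 0.94. In SRP72-bound against soluble RNA all 10 were still past 2-fold (18.9% of 5562 genes), from 1.37 [1.31, 1.43] for TAT2 to 2.86 [2.82, 2.90] for LYP1, at a median of 1.87. The change in log2 ratio from CHX to puromycin was over 2-fold downward for 9 of 10 on membranes (17.2% of all genes; median −1.59) and for 10 of 10 with SRP72 (24.9%; median −2.50). GAP1, at −0.92 [−1.10, −0.73], was the exception on membranes. With SRP72 the change ran from −1.85 (MUP1) to −3.01 [−3.06, −2.96] (BAP2). The membrane markers moved the same way, at medians of −2.17 and −2.68. With cytosolic scaling, which put the median of all genes at 0.25 in the membrane comparison, 7 in place of 4 permeases were past 2-fold there.

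**Figure D3:**
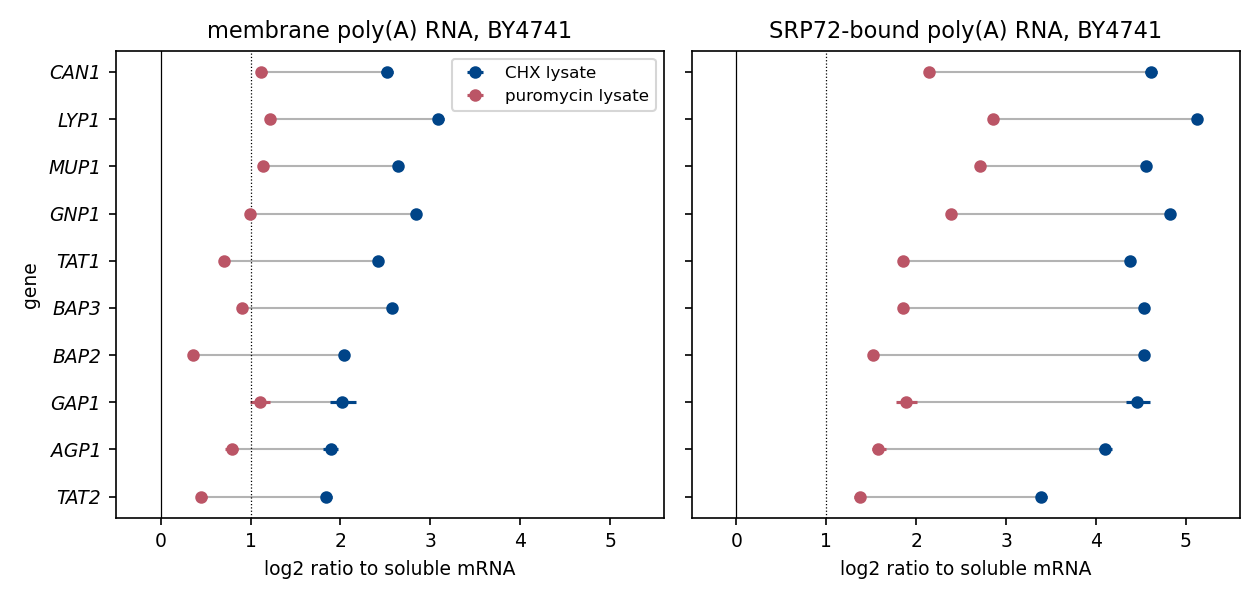
Log2 ratio of membrane (left) and SRP72-bound (right) to soluble poly(A) RNA for each permease in BY4741 lysates with CHX (blue) or puromycin (red); bars are 95% counting intervals, and the dotted line marks 2-fold. Each gene lies lower with puromycin, but all 10 remain right of the 2-fold line with SRP72, and 4 remain so on membranes.

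Footprints were also set against messages, as the log2 ratio of drug-free footprint CPM to CHX-lysate RNA CPM of the same fraction, centred on the median of all genes. In the soluble fraction the median of the permeases was −1.63 and all 10 were below 0, from GNP1 at −0.97 (mean of 2 replicates) to GAP1 at −2.46 and −2.74. On membranes the median was 0.45 and 9 were above 0. By the mean of 2 replicates TAT1 was highest, at 0.83 and 0.59, closely followed by CAN1 at 0.88 and 0.48. With SRP72 the median was −0.06, and the genes parted: BAP2 stood at 1.57 and 1.24, TAT1 at 0.79 and 0.68, GAP1 at −0.93 and −0.83. In the soluble fraction the permeases thus had fewer polysome footprints relative to RNA than most genes, and BAP2 had more with SRP72. The footprints are of polysomes only, while the RNA is labelled by fraction and not as polysomal. The ratio is therefore not a count of ribosomes per message. The RNA side is 1 library per fraction from a lysate with a drug, so these values have no test.

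W303 and prt1-1 gave RNA at 2 temperatures. At 25 °C, 9 of 10 messages in W303 (22.3% of 5469 genes) and 10 of 10 in prt1-1 (22.7% of 5500 genes) were over 2-fold higher in membrane than in soluble RNA, at medians of 2.94 and 2.61. The exception was CAN1 in W303, at 108 CPM in membrane and 103 CPM in soluble RNA (285 and 977 counts), a log2 ratio of 0.07 [−0.13, 0.26]. In W303 at 37 °C CAN1 was again even between the fractions, at 72.6 and 70.5 CPM (352 and 704 counts) and 0.04 [−0.15, 0.23], and again was the exception among 10 (19.3% of 5561 genes past 2-fold). CAN1 in prt1-1 at 25 °C had 672 and 72.7 CPM, a ratio of 3.21 [3.09, 3.32], and in BY4741 2.52.

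The gap between prt1-1 and W303 in the CAN1 ratio at 25 °C was 3.14 [2.92, 3.36], rank 4 of 5429 genes, while the other 9 permeases were between −1.41 (GAP1) and −0.16 (BAP2). Soluble CAN1 RNA was 103 CPM in W303 and 72.7 in prt1-1, and membrane CAN1 RNA 108 and 672 CPM, so the wider gap was in membrane RNA. Cytosolic scaling put CAN1 in W303 at 1.13 at 25 °C, with the median of all genes at 1.02. These are single libraries, so strain and library cannot be told apart.

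GAP1 differed between strains in level. Its membrane RNA was at 7098 CPM in W303 at 25 °C, or 3930 CPM per kb, the highest of the 10 permeases, and at 994 CPM in prt1-1. In the CHX lysate of BY4741 it was the lowest of the 10, at 33.2 CPM per kb, on a scale set separately. The W303 ratio of membrane to soluble RNA for GAP1, 4.76 [4.70, 4.82], was rank 18 of all genes. After 1 h at 37 °C, W303 had 987 CPM of GAP1 in membrane RNA and 76.7 in soluble RNA, down from 7098 and 262.

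**Figure D4:**
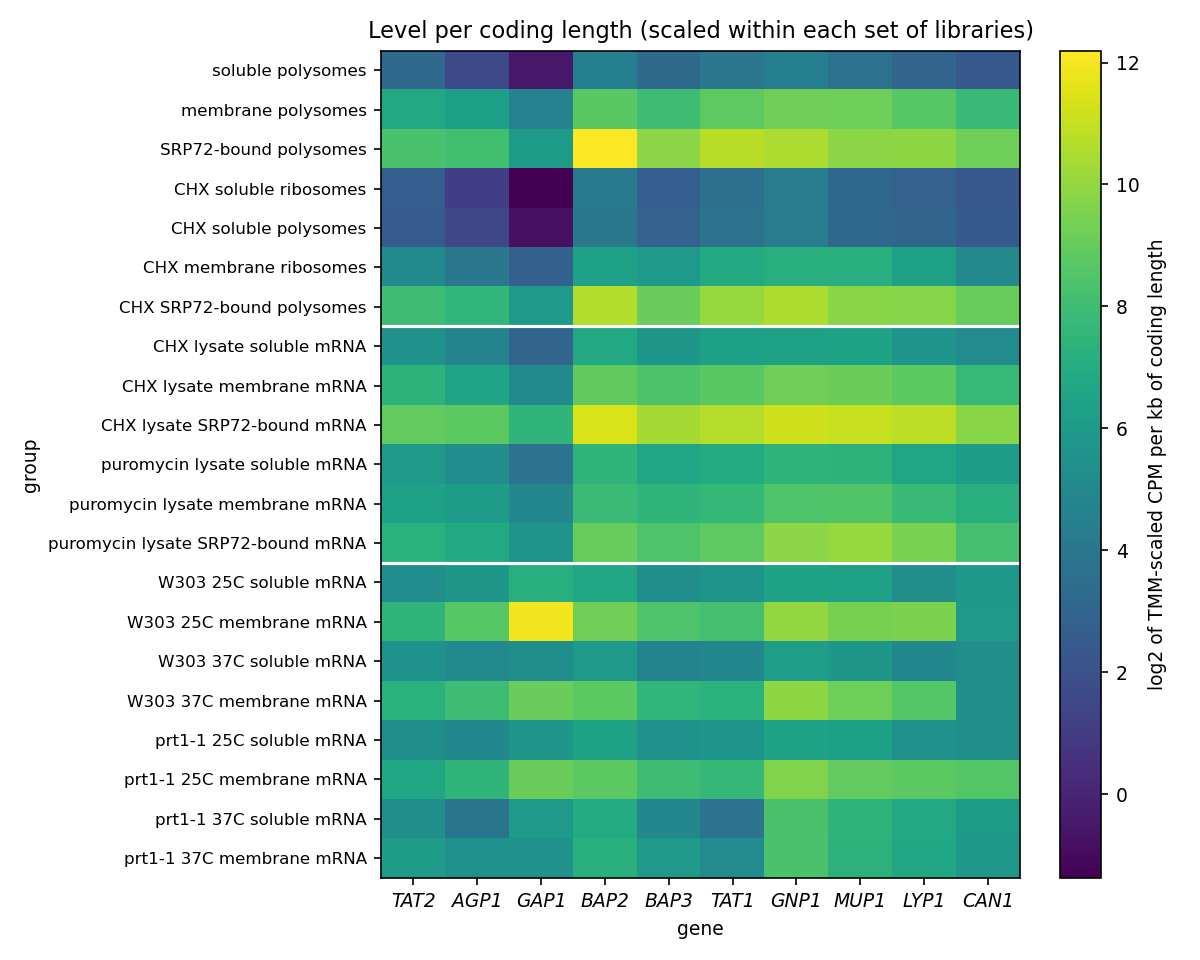
Level of each permease (columns) in each group (rows) as log2 of TMM-scaled CPM per kb of coding length, means of 2 libraries for the first 3 rows and single libraries below. White lines part the sets of footprint, BY4741 RNA and W303 and prt1-1 RNA; GAP1 is the darkest column in BY4741 and the brightest cell of the lower set in W303 membrane RNA at 25 °C, and CAN1 is dark in both W303 membrane rows.

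The shift to 37 °C parted the strains. In W303, 9 of 10 permeases remained past 2-fold on membranes, at a median of 2.88, and only GAP1 lost over 2-fold of its ratio (−1.07; 4.61% of all genes). In prt1-1 at 37 °C, 3 of 10 were past 2-fold (7.53% of 5661 genes), AGP1 at 1.53 [1.36, 1.70], TAT1 at 1.37 [1.18, 1.55] and BAP3 at 1.06 [0.93, 1.20], and TAT2 was at 0.71. The other 6 lay between −0.34 (GAP1) and 0.25 (BAP2), and the median was 0.10. The ratio fell by over 2-fold for 8 of 10 in prt1-1 (23.9% of all genes; median −2.41), from −1.05 (AGP1) to −3.68 (GAP1), with TAT1 (−0.54) and TAT2 (−0.65) the exceptions; with cytosolic scaling, which put all genes at −1.17, all 10 fell by over 2-fold, TAT1 at −1.67 and TAT2 at −1.79. The membrane markers moved with them, at a median of −3.36, and none of the 10 stayed past 2-fold at 37 °C.

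In prt1-1 the permeases as a set changed with heat in membrane RNA, while in soluble RNA single genes moved both ways. Relative to the median of all genes, with TMM, the permeases' median was −2.01 in membrane RNA and 0.08 in soluble RNA. Membrane RNA was lower at 37 °C than at 25 °C by over 2-fold for 9 of 10 permeases (18.3% of all genes), at a median of −2.03 with all genes at −0.02, TAT2 being the exception at −0.62. With cytosolic scaling, which put all genes at a median of 0.68, the count was 6 of 10, the permeases' median was −1.32 and TAT2 was at 0.08. In W303 membrane RNA was over 2-fold lower for GAP1 alone (−2.85; 3.98% of all genes). In soluble RNA of prt1-1, GNP1 (1.87), LYP1 (1.28) and MUP1 (1.14) were over 2-fold higher (29.0% of all genes) and TAT1 (−1.97 [−2.14, −1.81]) over 2-fold lower (16.6%), with all genes at a median of 0.25. AGP1 was at −0.99 and BAP3 at −0.69. The 3 messages still past 2-fold on membranes thus had the 3 lowest changes in soluble RNA, a library that enters both values. The 10 further plasma membrane amino acid transporters were all over 2-fold higher in that soluble RNA, at a median of 1.86.

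In W303 soluble RNA no permease was over 2-fold higher (10.9% of all genes) and GAP1 was over 2-fold lower (−1.77; 9.11%). Levels across temperatures depend on scaling: 31 of the 39 cytosolic genes themselves were over 2-fold lower in prt1-1 soluble RNA at 37 °C, and scaling to them put the median of all genes at 2.08 and that of the permeases at 2.17. Relative to all genes, the permeases' median in prt1-1 soluble RNA was 0.08 with TMM and 0.09 with cytosolic scaling, and in W303 −0.60 and −0.61.

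**Figure D5:**
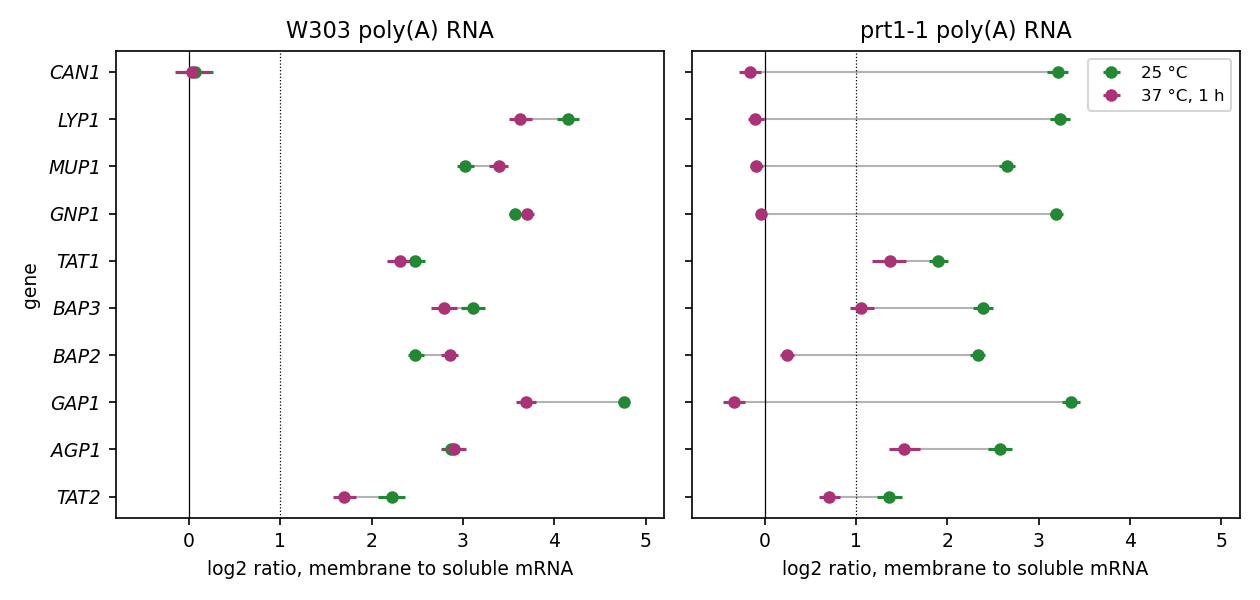
Log2 ratio of membrane to soluble poly(A) RNA for each permease in W303 (left) and prt1-1 (right) at 25 °C (green) and after 1 h at 37 °C (purple); bars are 95% counting intervals, and the dotted line marks 2-fold. In W303 only CAN1 lies at 0 at both temperatures, and in prt1-1 only AGP1, TAT1 and BAP3 remain right of the 2-fold line at 37 °C.

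The genes whose level followed the permeases most closely were sought by Pearson's r of each gene with the median of the 10 permeases over the 24 libraries, on log2 CPM centred within each set of libraries, among 5372 genes. They were the nuclear pore membrane protein NDC1 (0.996), the dolichyl-phosphate glucosyltransferase ALG5 (0.995), MRH1, a membrane protein related to the heat shock protein HSP30 (0.994), the ER mannosyltransferase ALG3 (0.994) and CDS1, the synthase of CDP-diacylglycerol (0.993). The authors' deposited table puts the first signal of NDC1, ALG5, MRH1 and CDS1 at codons 31, 12, 35 and 63 and classes ALG3 as "Exception". Among the permeases r ran from 0.94 (CAN1) to 0.995 (BAP3). Each permease enters the median it is set against, so these values are raised by design and not comparable with those of other genes. These values describe libraries that share fractions, strains and depth, and most genes of membrane proteins share the division between fractions.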

How the data were processed

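The deposited counts are unnormalized reads of each open reading frame, per the file headers. The submitters' processing notes name cutadapt 1.3, CASAVA, TopHat, Bowtie and sacCer3, with no role. Whether strand was used, and what was done with multi-mapping reads, is not given in the sources here, and reads shared between related permeases could not be separated. The authors' deposited log2 enrichments (scaled with DESeq2, per the file headers) were not used; their gene classes and signal positions were. Coordinates are from the RefSeq R64 gene table. Of the 30 samples, 24 had count columns that entered; monosome samples (6) are not analysed here. The CHX-lysate RNA is taken to be the BY4741 columns without a drug name, because the rest name puromycin. The 3 lines without a name were dropped.

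Footprints of the 3 replicated fractions were fitted together in R 4.3.3 with edgeR 4.0.16 (TMM, filterByExpr with minimum count 10 and total 15, quasi-likelihood test, Benjamini-Hochberg adjustment at 0.05), with 5393 genes tested, 3 residual degrees of freedom and a common biological coefficient of variation of 0.0805. The SE of a fold change was taken as its absolute log2 value over the square root of the F value of the test. DESeq2 1.42.0 was an alternative. Replicates differed beyond sampling noise (chi-square per degree of freedom 15.3 to 89.5). Single libraries were compared as log2 ratios of TMM-scaled CPM (prior count 0.5, at least 20 counts over the 2 libraries), with exact 95% intervals (normal approximations for a change between 2 ratios); both cover counting error only.

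All 10 permeases are named in every comparison. From each other list, at most 4 called genes with the largest change per replicated comparison, plus SHR3, could be named. The permeases, the lists and the tests were chosen with earlier results of these data known.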

Additional observations from a re-analysis of the deposited data

Results flagged for a closer look

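For several permeases the change at 37 °C had opposite signs in W303 and prt1-1 with TMM. Each value rests on 1 library per strain, temperature and fraction, and the differences between strains were not tested. The log2 ratio of membrane to soluble RNA changed by 0.37 in W303 and −2.08 in prt1-1 for BAP2, by 0.12 and −3.23 for GNP1, and by 0.37 and −2.74 for MUP1. With cytosolic scaling the W303 values of BAP2, GNP1 and MUP1 were −0.25, −0.49 and −0.25, so that both strains then had the same sign. The median of all genes was 0.03 in W303 and −0.03 in prt1-1 with TMM, and −0.59 and −1.17 with cytosolic scaling. Under both scalings these permeases lay above that median in W303 and below it in prt1-1.

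In soluble RNA the level changed by −1.77 in W303 and 0.14 in prt1-1 for GAP1, by −0.86 and 0.53 for BAP2, by −0.22 and 1.87 for GNP1, by −0.58 and 1.14 for MUP1, by −0.37 and 1.28 for LYP1, and by −0.55 and 0.63 for CAN1. With cytosolic scaling, GAP1 (−1.11 and 1.98) and BAP2 (−0.20 and 2.37) kept opposite signs, whereas GNP1, MUP1, LYP1 and CAN1 were above 0 in both. The median of all genes was 0.01 in W303 and 0.25 in prt1-1 with TMM, and 0.68 and 2.08 with cytosolic scaling. GAP1 lay below that median in both strains under both scalings. BAP2, GNP1, MUP1, LYP1 and CAN1 lay below it in W303 and above it in prt1-1 under both.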

How the results depend on the processing

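In the 3 replicated comparisons all 10 permeases were called higher under every alternative: other size factors, cytosolic scaling, no filter on low counts, DESeq2, fits of only the groups compared, the replicate block and each library left out. Deviations between replicates correlated at r = 0.325 for soluble and membrane, 0.12 for soluble and SRP72-bound and 0.087 for membrane and SRP72-bound libraries. Whether the replicate numbers pair the libraries is thus not settled, and the main fit holds no term for it. The block (10 permeases called in each comparison) is given as an alternative. Leaving out libraries, the count of permeases called was 10 throughout, and of all genes 1719 to 1799 were higher and 1497 to 1639 lower on membranes, 1950 to 2026 and 1834 to 1942 with SRP72, and 1323 to 1586 and 1155 to 1426 for SRP72-bound against membrane. Over all alternatives BAP2 ranged from 3.29 to 4.02 for SRP72-bound against membrane polysomes.

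Cytosolic scaling changed the counts of all genes: 719 in place of 1882 lower on membranes, 3769 higher and 143 lower with SRP72 (from 2105 and 2098), and 3699 higher and 267 lower for SRP72-bound against membrane (from 1604 and 1547). LST7 with SRP72 reversed, to 0.23. Among permeases past 2-fold, cytosolic scaling gave 7 in place of 4 for membrane RNA with puromycin (library size 3), 10 in place of 9 for the loss of membrane ratio with puromycin (8) and 10 in place of 9 for W303 membranes at 25 °C (9). With heat it gave 3 in place of 1 for the loss of membrane ratio in W303 (1), 10 in place of 8 for that loss in prt1-1 (8), 8 in place of 3 higher in prt1-1 soluble RNA (5) and 6 in place of 9 lower in prt1-1 membrane RNA (8). For the loss of SRP72 ratio with puromycin it kept 10 and library size gave 9. These scalings move all genes of a library together. Cytosolic scaling put the median of all genes itself past 2-fold for W303 membranes at 25 °C (1.02), the loss in prt1-1 (−1.17) and prt1-1 soluble RNA (2.08). In those comparisons the counts are therefore not read as a trait of the permeases. In prt1-1 membrane RNA that median was 0.68. Shares of all genes past 2-fold under these scalings are not given here. The alternatives for the changes with puromycin and heat were chosen after seeing the data. Single libraries limit every RNA and CHX value to counting error.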
